A study of Mus musculus with 8 samples.

Results

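CpG islands that lie outside annotated promoters were examined for 5-hydroxymethylcytosine (5hmC) in adult oligodendrocyte progenitor cells (aOPC) and adult oligodendrocytes (aOL) of the mouse brain. 5hmC was read by reduced representation 5-hydroxymethylcytosine profiling (RRHP), which counts reads at each strand of a CCGG sequence. A CCGG strand, called a site here, belonged to the set when the deposited tables marked it as lying in a CpG island, named no promoter for it, and placed it on an autosome. This rule kept 36750 sites, which were 2.62% of the 1401178 autosomal sites, while all chromosomes held 1497075. By the exon and intron fields of the tables, 12286 of them (33.4%) were exonic, 9177 (24.97%) were intronic without an exon, and 15287 (41.6%) were intergenic. For comparison, 134415 autosomal sites lay in islands within promoters.

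All cells came from C57BL/6 mice at postnatal day 60, and were sorted by fluorescence from the brains of 2 reporter lines. The aOPC carried Pdgfra-H2BEGFP, whose green protein marks cells that express the receptor of progenitors, and the aOL carried Plp-EGFP, driven by the promoter of a myelin protein gene. Cell stage and reporter line therefore changed together and cannot be told apart. Each group had 2 RRHP libraries and 2 RNA libraries, numbered 2 and 3, made from DNA and RNA of the same pellets. The tissue label of the aOL RRHP libraries names the progenitor reporter, so these libraries were grouped by their titles, and the titles of the aOL RNA libraries say pre-myelinating where the protocol says myelinating. The study calls such libraries biological replicates, without saying whether each came from separate animals or pools, so p-values measure only the spread between these samples.

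5hmC is made from 5-methylcytosine by the TET enzymes, and it is both a step in the removal of methylation and a stable mark in brain DNA. In RRHP a glucose is placed on 5hmC, which protects the CCGG from cutting by MspI, so that a read marks a CCGG strand that carried 5hmC. CpG islands are stretches with many CpG pairs that mostly stay unmethylated at promoters. Those inside genes or far from known genes are more often methylated, and so offer the substrate from which 5hmC is made.

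The sequences below are those of the islands on which the results turn, taken from the RefSeq genome of build GRCm38, the equal of mm10, on the plus strand, with each CCGG in capitals. Each stretch of 100 bases is centred on the site with the most reads in its locus. Zfp865 held the highest exonic locus after the ribosomal RNA gene, Gm13152 the highest intronic locus, and a group of transfer RNA (tRNA) genes the highest intergenic one. Ephb2 held the exonic locus called higher in aOL and Nfix an intronic locus called lower. The last line is a stretch of 50 bases from the intergenic islands of chromosome 12.
Zfp865, coding exon, chr7:5030264-5030363: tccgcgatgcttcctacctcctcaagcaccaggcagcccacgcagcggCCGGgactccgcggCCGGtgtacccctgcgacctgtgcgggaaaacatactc
Ephb2, coding exon, chr4:136693883-136693982: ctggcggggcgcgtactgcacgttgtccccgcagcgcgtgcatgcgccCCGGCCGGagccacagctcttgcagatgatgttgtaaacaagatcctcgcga
Gm13152, intron, chr4:147187885-147187984: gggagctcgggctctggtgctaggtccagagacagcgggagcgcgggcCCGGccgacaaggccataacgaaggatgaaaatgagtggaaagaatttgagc
Nfix, intron, chr8:84784971-84785070: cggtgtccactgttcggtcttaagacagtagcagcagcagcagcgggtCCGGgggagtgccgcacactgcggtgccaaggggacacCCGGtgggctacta
tRNA gene group, intergenic, chr1:171063944-171064043: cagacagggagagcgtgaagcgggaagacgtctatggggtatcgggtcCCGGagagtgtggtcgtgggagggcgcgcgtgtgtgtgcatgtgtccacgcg
Chromosome 12 stretch, intergenic, chr12:19044974-19045023: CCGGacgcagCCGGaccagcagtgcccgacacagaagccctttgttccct

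The aOPC libraries of replicates 2 and 3 held 7113237 and 17121440 counts, and those of aOL, in the same order kept throughout, 15923775 and 27057859. The aOPC library of replicate 2 was the shallowest and stood apart, since its level per site, in counts per 1000000 library counts (CPM), was higher than that of the other 3 libraries in each class of island, promoter islands included. The main values that rest on it are given with and without it. In the RNA, the 10 oligodendrocyte markers were high in both groups, with medians of 18.2 and 17.7 on the log2 scale in aOPC against 17.9 and 17.99 in aOL, and the 7 listed progenitor markers had medians of 8.87 and 6.43 in aOPC against 6.39 and 6.83 in aOL. At an unadjusted p under 0.05 there were 4 of the 10 oligodendrocyte and 2 of the 7 progenitor markers, with median log2 fold changes of 0.00 and −0.81, and none passed the adjusted limma test. Of all 11133 genes tested in RNA, 1346 (12.1%) were higher and 1331 lower at that threshold. Only 2 of the 8 endothelial markers were listed, with medians of 4.70 and 5.58 in aOPC against 7.83 and 8.60 in aOL. Both were past the unadjusted threshold, with a median log2 fold change of 3.08. None of the astrocyte, microglia, endothelial or neuron markers passed the test. Their part in the island results was not tested.

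Exonic islands carried more 5hmC signal than intronic or intergenic islands in every library. Without the ribosomal RNA gene described next, exonic island sites had 0.534 and 0.420 CPM per site in aOPC against 0.408 and 0.443 in aOL. Intronic island sites had 0.348 and 0.171 in aOPC against 0.153 and 0.190 in aOL. Intergenic island sites had 0.345 and 0.159 in aOPC against 0.141 and 0.186 in aOL. The exonic class was thus 1.53 to 2.68 times the intronic class and 1.55 to 2.89 times the intergenic class, depending on the library. Intronic and intergenic sites were close, with ratios of 1.01 to 1.08, and both were above promoter islands, which had 0.289 and 0.102 in aOPC against 0.0884 and 0.133 in aOL. Each of these 5 orders held in 4 of 4 libraries, which gave an exact paired permutation p of 0.125 (two-sided, 0.125 after adjustment over the 5), the smallest that 4 libraries allow.

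**Figure D1:**
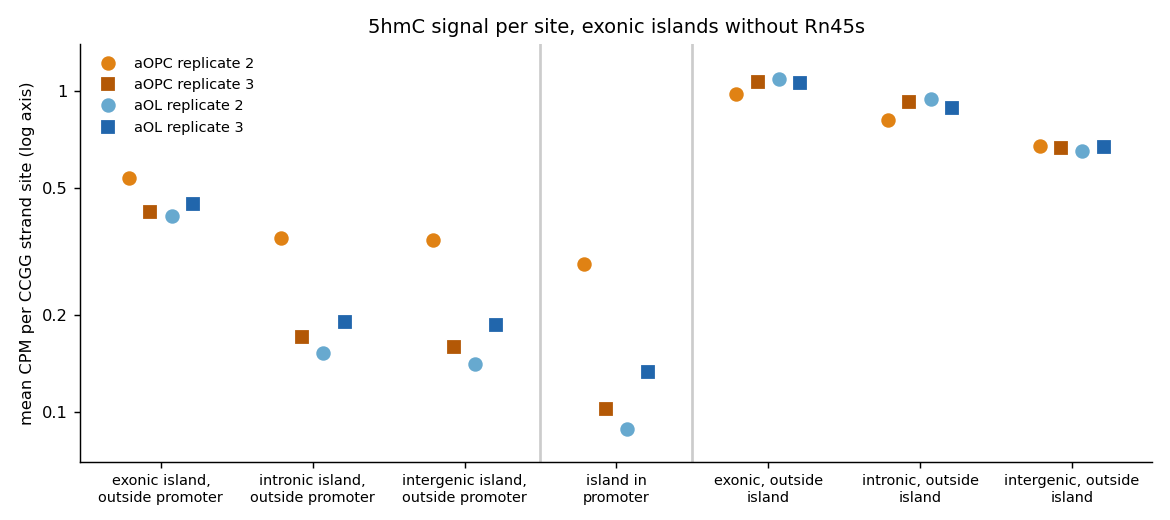
Mean CPM per CCGG strand site on a log axis in each of the 4 libraries, for exonic, intronic and intergenic island sites outside promoters, for promoter islands and for sites outside islands, with exonic islands shown without Rn45s, the ribosomal RNA gene. In every library the exonic islands, from 0.408 to 0.534 CPM per site, lie above the other islands and below the exonic sites outside islands.

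One gene held a large part of the exonic counts. Rn45s, the placed copy of the 45S ribosomal RNA precursor gene, which is repeated many times in the genome, held 80 of the exonic island sites, or 0.651% of them. Its sites had 15103 and 18362 counts in aOPC against 21812 and 71218 in aOL, which was 24.6 and 17.3% of all exonic island counts in aOPC against 21.6 and 32.7% in aOL. Of the 100 island sites with the highest mean CPM, 57 lay in it. Reads from the unplaced repeats and from this copy cannot be told apart, so exonic values are given without it unless stated. Neither of its loci, at chr17:39844121-39846250 and chr17:39848264-39848754, differed between the groups beyond the spread (log2 fold change of aOL over aOPC 0.25 and 0.35, edgeR adjusted p 0.866 and 0.791). For the first, the log2 fold change was 0.89 without aOPC replicate 2 and −0.20 without aOPC replicate 3.

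Over all sites, those in islands outside promoters had less 5hmC signal than sites of the same class outside islands. Outside islands and promoters, exonic sites had 0.978 and 1.07 CPM per site in aOPC against 1.09 and 1.06 in aOL. The exonic island level was 0.553 and 0.396 of that in aOPC against 0.378 and 0.426 in aOL. For intronic sites the share was 0.429 and 0.185 in aOPC against 0.162 and 0.215 in aOL, and for intergenic sites 0.512 and 0.241 in aOPC against 0.217 and 0.279 in aOL. In all 4 libraries intronic islands were thus the lowest by this measure, intergenic islands came next, and exonic islands were the highest. Among only the sites that had enough reads for the test described further on, the exonic share was 1.33 and 0.997 in aOPC against 1.03 and 1.36 in aOL with Rn45s included. Without Rn45s it was 0.881 and 0.804 in aOPC against 0.784 and 0.834 in aOL, below 1 in each library. The intronic share among these sites was 0.796 and 0.622 in aOPC against 0.578 and 0.627 in aOL.

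The whole set took 121658 and 174581 counts in aOPC against 157786 and 341791 in aOL. This was 1.71% (95% Wilson interval 1.70 to 1.72) and 1.02% (1.015 to 1.024) of the aOPC libraries and 0.991% (0.986 to 0.996) and 1.26% (1.259 to 1.267) of the aOL libraries, where the intervals cover counting error only. The aOL share was 0.826 of the aOPC share, with an exact permutation p of 0.667, and 1.11 without aOPC replicate 2. The smallest p that 2 against 2 libraries can give is 0.333, so no such share could pass a threshold of 0.05. Exonic sites, Rn45s included, made up 50.5 and 60.7% of the island counts in aOPC against 64.1 and 63.6% in aOL, a difference of 8.22 percentage points (exact permutation p 0.333). It was 3.12 points without aOPC replicate 2, 13.3 without aOPC replicate 3 and 2.38 over the sites with enough reads for the test. Without Rn45s the shares were 43.5 and 56.1% in aOPC against 58.3 and 54.1% in aOL, and the groups overlapped.

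Signal in exonic islands was unevenly spread over sites. Of the exonic sites, 1318 (10.7%) with Rn45s and 1255 (10.3%) without it exceeded a mean of 1 CPM, against 234 intronic (2.55%) and 296 intergenic sites (1.94%). The 10% of sites with the most reads held 53.0% of the exonic counts without Rn45s, 43.1% of the intronic and 42.6% of the intergenic counts. With each library thinned to 7113237 counts, reads were seen at 79.6 and 61.0% of exonic sites, Rn45s included, in aOPC and at 59.4 and 67.5% in aOL. For intronic sites these shares were 77.1 and 48.3% in aOPC against 44.1 and 55.5% in aOL, and for intergenic sites 77.7 and 47.9% in aOPC against 42.1 and 53.7% in aOL. Breadth of detection therefore followed the same order as the level in the last 3 libraries, while in aOPC replicate 2 intergenic sites stood above intronic ones.

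Distance from promoters went with the level, most of all in exons. Exonic island sites within 500 bp of a promoter island had 0.218 CPM per site as the mean of the 4 libraries, and those more than 10 kb away had 0.559. Intronic sites went from 0.163 to 0.249 over the same distances, and intergenic sites from 0.164 to 0.210 with a higher value, 0.229, in the bin before the last. The share of exonic sites with enough reads for the test went along, from 4.74 to 26.4%. By distance to the nearest annotated transcription start, exonic sites went from 0.230 in the nearest bin to 0.668 in the farthest. Exonic sites in coding sequence had 0.474 CPM per site over 10808 sites, against 0.285 over 1178 sites in untranslated parts.

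The level also went with CpG density. The observed over expected CpG ratio compares the number of CpG pairs in a window of 300 bp with that given by its C and G content. From ratios under 0.6 to ratios over 1, exonic sites went from 0.771 through 0.513 and 0.333 to 0.212 CPM per site. Intronic sites went from 0.309 to 0.150 and intergenic sites from 0.272 to 0.174. The members that had enough reads for the test had a median ratio of 0.704 and a GC content of 63.3%, against 0.805 and 67.3% for the others. Exonic and intronic members had nearly the same median CpG ratio, 0.781 and 0.782, and intergenic members had 0.813. Of the exonic sites 42.0% lay more than 10 kb from a promoter island, against 43.0% of intronic and 71.5% of intergenic sites. This was not the order of the classes by level. The median distance to the nearest annotated transcription start was 3115.5 bp for exonic, 1297 bp for intronic and 937 bp for intergenic members, which was that order. The part of these measures in the difference between the classes was not tested.

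**Figure D2:**
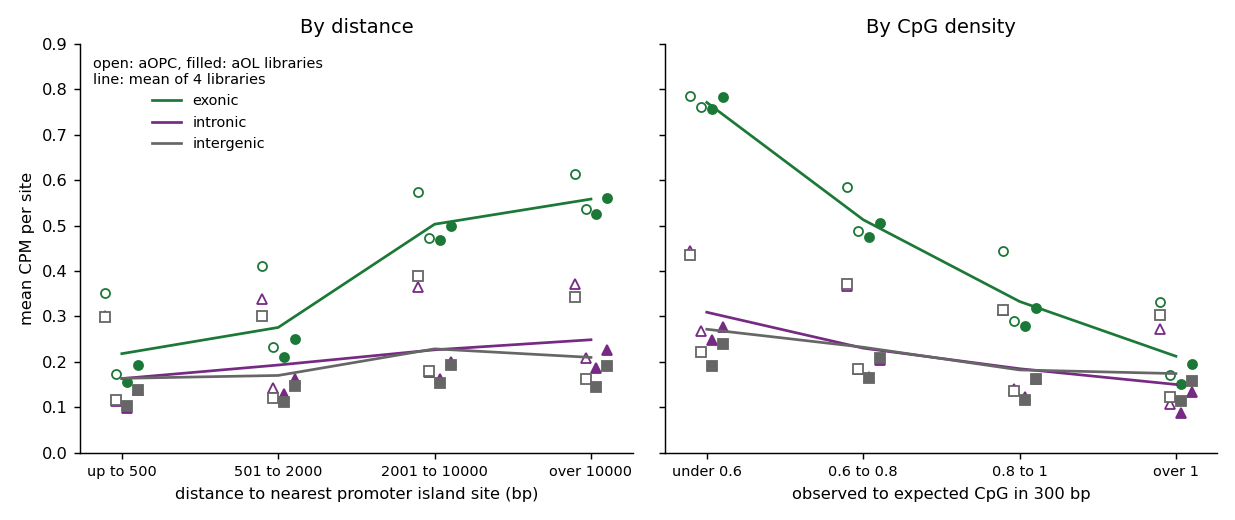
Mean CPM per site of exonic (green circles, without Rn45s), intronic (purple triangles) and intergenic (grey squares) island sites, by distance to the nearest promoter island site and by the observed over expected CpG ratio; open points are aOPC libraries, filled points aOL libraries, and lines join the means of the 4. Exonic sites go from 0.218 to 0.559 CPM per site with distance and from 0.771 to 0.212 with CpG ratio, and the other classes change less.

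Sites of one kind that lay within 500 bp of each other were joined into loci, which gave 1906 exonic, 987 intronic and 1814 intergenic loci. Of the exonic loci, 373 (19.6%) lay within 500 bp of a promoter island, as did 383 intronic (38.8%) and 180 intergenic loci (9.92%). Exonic loci that stood alone had 0.557 and 0.452 CPM per site in aOPC against 0.443 and 0.477 in aOL. Those next to a promoter island had 0.369 and 0.189 in aOPC against 0.168 and 0.201 in aOL. An exonic locus beside a promoter island was thus lower than one that stood alone in each library, and 7.26% of the former exceeded 0.5 CPM per site against 36.0% of the latter.

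The classes also differed in how unique their sequence was. The 50 bases read from a CCGG occurred more than once in the genome for 0.944% of exonic, 3.15% of intronic and 10.1% of intergenic island sites, against 1.36% of promoter island sites. Counts at repeated sequences are uncertain, because reads of such copies cannot be told apart. By RefSeq, 253 of the 1814 intergenic loci (13.9%) held the start of a gene, and 41.6% of the intergenic sites lay within 500 bp of a GENCODE transcription start. Some islands called intergenic by the deposited fields are thus at starts of genes that those fields do not hold. By GENCODE, 542 of the intergenic loci (29.9%) overlapped a protein-coding gene and 849 (46.8%) overlapped no gene. By RefSeq, 1078 (59.4%) overlapped a gene or pseudogene. The intergenic class thus means only that the deposited fields name no promoter, exon or intron.

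The highest exonic islands after Rn45s were in Zfp865, Prickle1, Scaf1, Zfp316 and Upf1. Zfp865, a zinc finger gene, held 34 coding sites at chr7:5030314-5031782 with 227 and 785 counts in aOPC against 747 and 1277 in aOL, or 38.9 ± 9.85 against 47.1 ± 0.201 CPM (SD, n = 2 each). Prickle1, a planar cell polarity gene, held 8 coding sites at chr15:93500694-93501001 with 256 and 730 counts in aOPC against 672 and 1028 in aOL. It had the highest level per site of the 5, a mean of 4.96 CPM. Scaf1, whose product binds the tail of RNA polymerase II, had 225 and 681 counts in aOPC against 540 and 958 in aOL over 22 sites at chr7:45007191-45008511. Zfp316, another zinc finger gene, had 237 and 603 counts in aOPC against 493 and 958 in aOL over 51 sites at chr5:143253003-143255247. Upf1, the helicase of nonsense-mediated RNA decay, had 251 and 521 counts in aOPC against 431 and 751 in aOL over 18 sites at chr8:70330918-70332225. The log2 fold changes of these 5 loci lay between −0.31 and 0.22, with edgeR adjusted p from 0.684 to 0.978, so the highest exonic islands did not differ between the groups beyond the spread.

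The highest intronic islands were lower than these. Gm13152, a predicted gene, led with 172 and 553 counts in aOPC against 282 and 673 in aOL over 6 sites at chr4:147187696-147187935, and the sequence shown for it occurs 3 times in the genome. Thada, at chr17:84268914-84269755, had 157 and 339 counts in aOPC against 281 and 436 in aOL. Rbfox3, which encodes the neuronal splicing factor known as NeuN, had 105 and 216 counts in aOPC against 187 and 292 in aOL at chr11:118891229-118891593. Foxp4, a forkhead factor, had 107 and 143 counts in aOPC against 144 and 213 in aOL. Nedd4l, a ubiquitin ligase, had 44 and 197 counts in aOPC against 187 and 251 in aOL. None of the 5 passed the test, with log2 fold changes from −0.49 to 0.15 and edgeR adjusted p from 0.616 to 0.906.

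Of the highest intergenic islands, 2 held small RNA genes. The locus at chr1:171063993-171065945 holds tRNA genes by RefSeq and overlaps the protein-coding gene Fcgr3. It had 250 and 349 counts in aOPC against 601 and 1127 in aOL over 38 sites. Another, at chr1:171079235-171081193, had 259 and 328 counts in aOPC against 484 and 953 in aOL over 36 sites. All 3 loci with tRNA genes together held 98 sites, of which 96.9% had repeated sequence, at 89.7 and 47.6 CPM in aOPC against 82.3 and 94.3 in aOL, and none was called. Without aOPC replicate 2 both named loci were called higher in aOL, with log2 fold changes of 0.94 and 0.75 (edgeR adjusted p 0.00770 and 0.0445). The locus at chr4:146474752-146475559 had 219 and 819 counts in aOPC against 321 and 633 in aOL over 15 sites (log2 fold change −0.91, SE 0.23, edgeR adjusted p 0.103). The locus at chr18:38189454-38189898 had 166 and 391 counts in aOPC against 340 and 485 in aOL (−0.29, edgeR adjusted p 0.718). By GENCODE it overlaps the protein-coding gene Pcdh1, and all 18 of its sites lie in untranslated parts, so only the deposited fields make it intergenic.

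To compare aOL with aOPC, edgeR was fitted to all sites and, apart from that, to all loci, keeping those that reached 10 reads in 2 or more libraries. Of the 36750 members, 3636 sites passed this filter (2435 exonic, 489 intronic and 712 intergenic, Rn45s included), and 29 were called higher in aOL (0.798%) and 28 lower (0.770%) at an adjusted p under 0.05. Over all 443062 sites tested, 1.21% were called higher and 1.08% lower. At the level of loci, 3540 of 4707 passed the filter, and 2 were called higher (0.0565%) and 24 lower (0.678%), against 0.948% higher and 1.16% lower over all 260747 loci tested. Over the whole set, the share of calls was thus below that of the genome in both directions in this fit. The same held for promoter island loci, with 0.0318% higher and 0.0743% lower, and for promoter loci outside islands, with 0.554 and 0.812%. With no filter on low counts, 89 of 4707 member loci were lower, a larger share than the 6996 of 492924 over all loci. At an unadjusted p under 0.05, 35 island loci were higher (0.989%) and 297 lower (8.39%), where all loci had 5.04% higher and 4.16% lower.

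The island loci leaned to lower values in aOL, and this rested on a single library. The median log2 fold change was −0.61 over all member loci, −0.34 over exonic, −0.74 over intronic and −0.75 over intergenic loci, beside −0.02 over all loci tested and −0.84 over promoter islands. In 78.6% of the tested member loci the highest CPM was that of aOPC replicate 2. Without this library the median was 0.03, beside −0.002 over all loci tested. Without aOPC replicate 3 the median was −1.24, beside 0.03 over all loci. It was −0.43 without aOL replicate 2 and −0.82 without aOL replicate 3, beside −0.02 and −0.01 over all loci.

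**Figure D3:**
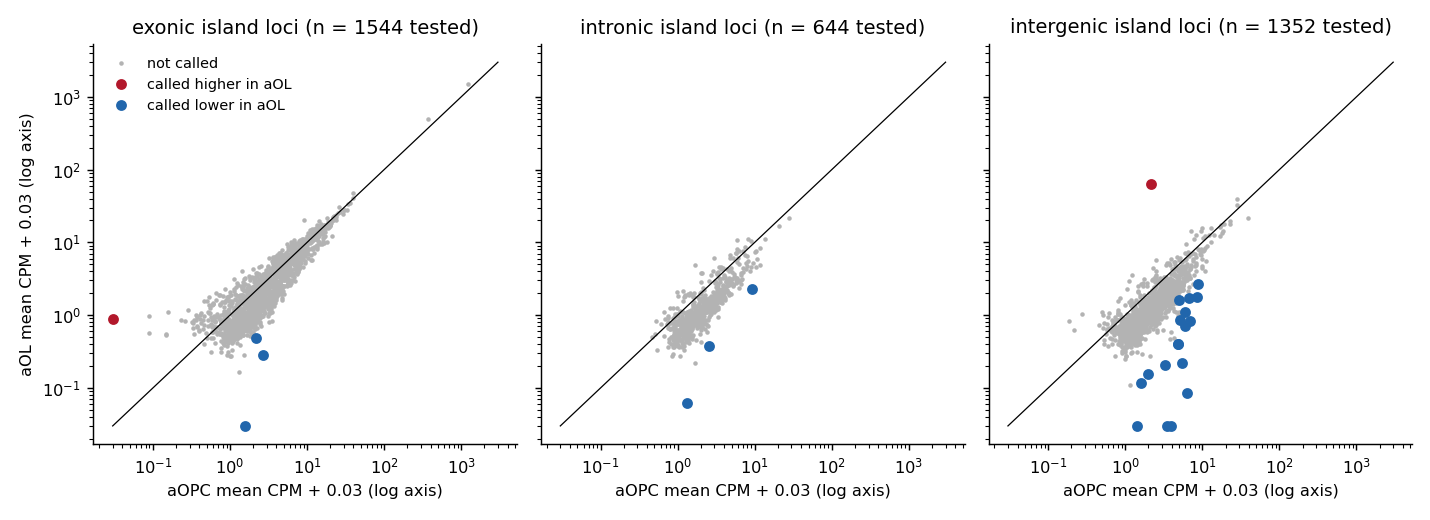
Mean CPM of each tested island locus in aOPC (x axis) and aOL (y axis), on log axes after adding 0.03 CPM, in a panel for each of the exonic, intronic and intergenic classes; the line marks equal values, red points are called higher in aOL and blue points lower. Most loci lie near the line or below it, with 2 red points above it and 24 blue points below it.

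By class, exonic loci had 1 call higher and 3 lower of 1544 tested, intronic loci 0 and 3 of 644, and intergenic loci 1 and 18 of 1352. Among sites, 8 exonic were called higher and 6 lower (0.329 and 0.246% of those tested), 3 intronic higher and 5 lower (0.613 and 1.02%), and 18 intergenic higher and 17 lower (2.53 and 2.39%). The intergenic sites were thus above the 1.21 and 1.08% of all sites, and the exonic sites below. Of the intergenic loci 1.33% were called lower, beside 1.16% of all loci. Calls in islands came from few places, with 32 of the 57 called sites in 4 windows of 5 Mb, and 14 of the intergenic sites called higher lay in 1 locus. In 24 of the 29 higher and 21 of the 28 lower sites, neither library of the lower group had more than 3 counts, so their fold changes are given as lower bounds, computed against a floor of 3 counts in each library. Such a site reached the test only through the group where it is high, so a difference was built into its selection, and its values are a description.

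The exonic locus called higher was in coding sequence of Ephb2, a receptor tyrosine kinase for ephrins. Its 2 sites, at chr4:136693932-136693936, had 0 and 0 counts in aOPC against 12 and 26 in aOL, an increase of at least 2.87-fold (edgeR adjusted p 0.0330). A second coding site of this gene, at position 136771531, also had reads only in aOL, with 0 and 0 counts in aOPC against 36 and 56 in aOL, at least 7.25-fold more (edgeR adjusted p 4.18e-04). Both reached the test only through the aOL libraries. The Ephb2 locus lost its call without aOPC replicate 3, with a log2 fold change of 6.88 beside 6.87 (edgeR adjusted p 0.0667), and in DESeq2, with 5.65 (adjusted p 0.116).

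Of the loci called lower in aOL, Nfix was the intronic one with the most reads. Nfix encodes a transcription factor of the nuclear factor I family, which acts in neural development. Its 15 sites at chr8:84784318-84785021 had 89 and 103 counts in aOPC against 32 and 67 in aOL, or 9.26 ± 4.59 against 2.24 ± 0.330 CPM (SD, n = 2 each). Both aOPC libraries were above both aOL libraries (log2 fold change −2.04, SE 0.39, edgeR adjusted p 0.0279). Without aOPC replicate 2 the log2 fold change was −1.43 (edgeR adjusted p 0.00378). The call was lost without aOL replicate 2 (−1.88, edgeR adjusted p 0.103), with scaling to the island sites themselves (−1.72, 0.237) and when 10 reads were asked of every library (−1.96, 0.149).

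Of the 24 loci called lower, 12 had under 10 reads in both aOL libraries, and so reached the test only through the aOPC libraries, which makes their values a description. The other genic loci called lower were smaller, and are named here after their values were seen. Those of Ercc2, Pcdhgb5, Pcdhga12 and Kif26a are among these 12. Ercc2, a DNA helicase of nucleotide excision repair and transcription, had 15 and 38 counts in aOPC against 9 and 9 in aOL over 3 exonic sites (edgeR adjusted p 0.0458). In the clustered protocadherins, whose products help nerve cells to recognise each other, an exonic locus of Pcdhgb5 had 12 and 24 counts in aOPC and none in aOL. One of Pcdhga12 had 17 and 51 counts in aOPC against 5 and 5 in aOL. An intronic site of Kif26a, an unusual kinesin, had 13 and 13 counts in aOPC against 1 and 0 in aOL. A second intronic locus of Gm13152 had 19 and 40 counts in aOPC against 4 and 12 in aOL.

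Intergenic islands held 18 of the 24 loci called lower, and 12 of these lay over pseudogenes in the GENCODE annotation. Pseudogenes are copies of genes that no longer make the product, and many arose by reverse transcription of an RNA. Of the 1814 intergenic loci, 121 (6.67%) overlapped a pseudogene, and 12 of the 106 of them that were tested were called lower and 0 higher, where 1.16% of all loci were called lower. Outside the stretch of chromosome 12 described next, 5 of 87 were called lower, so that 7 of the 12 lay in that stretch of similar islands. Of those over a protein-coding gene 1 of 431 was called lower, over a non-coding RNA gene 4 of 248, and over no gene 1 of 567. Of the 12 called loci over pseudogenes, 6 reached the test only through the aOPC libraries, and this holds for all those named next, the 2 outside pseudogenes included. The island over Ccnd3-ps, at chr4:139346140-139346304, had 45 and 110 counts in aOPC against 0 and 3 in aOL, at least 42.6-fold lower (edgeR adjusted p 8.16e-04). The island over H2-Q3, a pseudogene of the major histocompatibility complex, had 13 and 17 counts in aOPC and none in aOL, at least 9.42-fold lower. Over Trmt112-ps2 there were 13 and 23 counts in aOPC against 1 and 3 in aOL, and over Gm12241 17 and 26 in aOPC against 1 and 5 in aOL. Outside pseudogenes, an island at chr12:110187599-110188813 over the non-coding RNA gene Gm34785 had 37 and 44 counts in aOPC and none in aOL, at least 26.0-fold lower. At chr1:171679827-171679980, over A630035G10Rik, there were 28 and 52 counts in aOPC and none in aOL, at least 23.3-fold lower.

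Of the 24 loci called lower, 9 lay in 1 stretch of chromosome 12, which holds an array of similar islands. Between positions 19044167 and 23969388 there were 33 intergenic island loci with 671 sites, of which 55.0% had sequence found more than once in the genome, against 8.15% of the other intergenic sites. The 50-base stretch shown above occurs 23 times, all on chromosome 12, and 11 of the array's loci hold a site that reads it. Over the whole array the counts were 1555 and 1675 in aOPC against 637 and 1736 in aOL, or 219 and 97.8 CPM in aOPC against 40.0 and 64.2 in aOL. Both aOPC libraries were thus above both aOL libraries, at 158 ± 85.4 against 52.1 ± 17.1 CPM (SD, n = 2 each), 3.04 times as high, and aOPC replicate 3 alone was 1.88 times the aOL mean. Of the 32 loci tested, 31 had a negative log2 fold change, with a median of −1.94, beside −0.74 over the other intergenic loci. In 25 of the 32, both aOPC libraries were above both aOL libraries, where this held for 18.2% of all loci tested and for 324 of the 1320 other intergenic loci tested. The stretch was noticed for its calls. Its loci that were not called had both aOPC libraries above both aOL libraries in 16 of 23, with a median of −1.45. Without aOPC replicate 2 the median of the array was −1.17 and that of all member loci 0.03, and 8 of the array's loci were called. Without aOPC replicate 3 there were 24 called, without aOL replicate 2 there were 3, without aOL replicate 3 there were 13, and 0 when 10 reads were asked of every library.

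The called islands of the array with the most reads are given here, and the loci that were not called had log2 fold changes from −2.50 to 0.41. The one over Gm9257, at chr12:19606397-19607219, had 72 and 64 counts in aOPC against 11 and 24 in aOL (log2 fold change −3.10, SE 0.53, edgeR adjusted p 0.0149, and −2.23 without aOPC replicate 2). The one over Gm48636, at chr12:19704102-19704444, had 29 and 118 counts in aOPC against 2 and 7 in aOL (−4.76, SE 0.51, edgeR adjusted p 0.00146), and only 14.3% of its sites had repeated sequence. It reached the test only through the aOPC libraries. At chr12:23426591-23427220 there were 56 and 71 counts in aOPC against 6 and 27 in aOL, and at chr12:21898662-21899567 there were 60 and 58 in aOPC against 19 and 25 in aOL (log2 fold change −2.49, and −1.73 without aOPC replicate 2). At chr12:19044167-19044985 there were 60 and 85 counts in aOPC against 22 and 54 in aOL. All 5 were above in both aOPC libraries once depth was taken into account, and reads of the repeated sites cannot be assigned to one island. Outside the array, the repeated locus at chr4:145745116-145745792 had 90 and 76 counts in aOPC against 25 and 51 in aOL. Its log2 fold change was −2.28 (edgeR adjusted p 0.0476), and −1.37 without aOPC replicate 2.

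**Figure D4:**
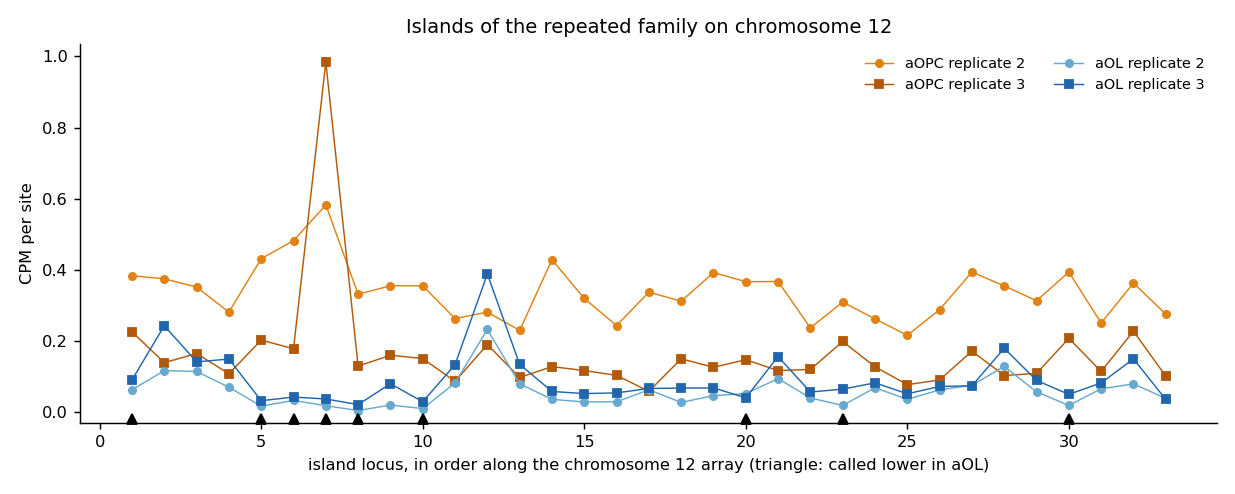
CPM per site of the 33 intergenic island loci of the chromosome 12 array, in their order along the chromosome, for the 4 libraries; triangles mark the 9 loci called lower in aOL. The aOPC libraries (orange) lie mostly above the aOL libraries (blue), with aOPC replicate 2 the highest at nearly all loci.

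Within genes, single strands of a CCGG were also called, and these sites too are named after their values were seen. A coding site of Kif26a at position 112174212 had 0 and 0 counts in aOPC against 48 and 114 in aOL, at least 12.1-fold higher, which is opposite in direction to the intronic site of the same gene. Coding sites of Mepce, which caps the 7SK RNA, with 0 and 0 counts in aOPC against 11 and 50 in aOL, and of the nuclear receptor gene Ppard, with 0 and 0 in aOPC against 19 and 18 in aOL, were also called higher. Notch1, which encodes a receptor that holds back progenitor differentiation, had a coding site with 0 and 3 counts in aOPC against 19 and 26 in aOL (edgeR adjusted p 0.04995). Slc25a51, a mitochondrial carrier gene, had many reads in all 4 libraries at its site, 21 and 74 in aOPC against 162 and 422 in aOL, with a log2 fold change of 1.71 (edgeR adjusted p 0.00560). In introns, Tns1, with 0 and 0 counts in aOPC against 20 and 26 in aOL, and Rasgrp2, with 1 and 2 in aOPC against 24 and 28 in aOL, were called higher.

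Sites called lower showed the same pattern in the other direction. Hspg2, the gene of the basement membrane protein perlecan, had an intronic site with 33 and 107 counts in aOPC and none in aOL, at least 36.4-fold lower. Its coding site at position 137518684 had 31 and 71 counts in aOPC against 0 and 1 in aOL. The coding site of Sec1, a fucosyltransferase gene, had 36 and 132 counts in aOPC against 1 and 0 in aOL, at least 42.7-fold lower. Brsk1, a kinase of neuronal polarity, had 33 and 37 counts in aOPC and none in aOL, and an intronic site of Ano8 had 18 and 43 in aOPC and none in aOL. All of these reached the test only through the aOPC libraries. Zfpm1, a cofactor of GATA factors, was a case of a graded difference, with 29 and 61 counts in aOPC against 20 and 41 in aOL and a log2 fold change of −1.52 (edgeR adjusted p 0.0322).

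Gene lists by function held few calls. Of 8 lineage genes with an island outside promoters, 4 loci were tested and none passed the test at the adjusted or the unadjusted threshold, and their level was low, at 0.347 and 0.0831 CPM per site in aOPC against 0.0907 and 0.108 in aOL. The exonic island of Olig2, the transcription factor that specifies the lineage, had 38 and 25 counts in aOPC against 19 and 41 in aOL over 15 sites. Olig1, Sox9, Sox10 and Mbp had loci with fewer counts than that. Developmental regulators, by symbol (Hox, Pax, Sox, Fox and the like), had 192 loci in 131 genes, of which 154 were tested. None was called, and at an unadjusted p under 0.05 there were 0 higher and 20 lower, where 0.989% of the tested member loci were higher and 8.39% lower, and 5.04 and 4.16% of all loci. Their median log2 fold change was −0.74, beside −0.61 over all member loci, and their level was 0.373 and 0.186 CPM per site in aOPC against 0.167 and 0.207 in aOL.

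Genes of the enzymes and readers of DNA methylation had higher levels than the lineage genes in each library. They had 7 loci in 4 genes at 0.562 and 0.899 CPM per site in aOPC against 1.001 and 0.899 in aOL, and none of the 6 tested passed at either threshold. Tet3, which encodes a TET enzyme, had an exonic island at chr6:83368007-83368425 with 32 and 97 counts in aOPC against 92 and 170 in aOL. Another, at chr6:83404466-83404721, had 40 and 117 counts in aOPC against 128 and 200 in aOL. Cxxc5, whose product binds unmethylated CpG, had an exonic island with 57 and 259 counts in aOPC against 291 and 329 in aOL, and Kdm2b, a histone demethylase of CpG islands, one with 8 and 60 in aOPC against 52 and 157 in aOL. Their log2 fold changes were 0.18, 0.24, 0.30 and 0.82 (edgeR adjusted p 0.671 to 0.873), so no difference was shown. Of the other loci of the list, the exonic site of Mbd3, a methyl-CpG binding family member, had 7 and 26 counts in aOPC against 40 and 30 in aOL (0.39). The intronic island of Cxxc5 had 7 and 21 in aOPC against 3 and 35 in aOL (−0.53), and an intronic site of Kdm2b with 1 and 5 in aOPC against 0 and 3 in aOL had too few reads for the test.

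Imprinted genes, which are expressed from 1 parental copy, had 12 loci in 10 genes. None of the 9 tested passed at either threshold, and the median log2 fold change was −0.20. The longest, in exons of Gnas at chr2:174299003-174300607, had 108 and 187 counts in aOPC against 151 and 369 in aOL over 37 sites. The intronic island of Inpp5f had 51 and 132 counts in aOPC against 105 and 178 in aOL, and was the highest per site of the list with a mean of 1.002 CPM. Cdkn1c, a cell cycle inhibitor, had 50 and 66 counts in aOPC against 52 and 127 in aOL.

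Zinc finger genes by the symbol Zfp had the highest level per site of the gene families named here in each library. Their 64 loci in 50 genes had 0.705 and 0.647 CPM per site in aOPC against 0.634 and 0.669 in aOL, and 51 of them lay in exons. None of 51 tested was called, with 0 higher and 2 lower at an unadjusted p under 0.05 and a median log2 fold change of −0.08. Protocadherins by the symbol Pcdh had 26 loci in 25 genes, and 2 of the 19 tested were called lower, those named above, which reached the test only through the aOPC libraries, with 2 higher and 3 lower at an unadjusted p under 0.05, where 1.16% of all loci tested were called lower. Potassium channel genes (Kcn) had 36 loci, at 0.470 and 0.320 CPM per site in aOPC against 0.333 and 0.362 in aOL, with 0 of 28 tested called and 0 higher and 1 lower at the unadjusted threshold. Solute carriers (Slc) had 27 loci, with 0 of 20 tested called and 1 higher and 4 lower at the unadjusted threshold. At that threshold 0.989% of the tested member loci were higher and 8.39% lower, and 5.04 and 4.16% of all loci tested. No locus was called among 9 tested of Cacna, 9 of Gri, 1 of Gabr, 7 of Col, 9 of Sema and 6 of Adam genes, and of these only Cacna had 1 locus, a higher one, past the unadjusted threshold.

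The RNA of the host genes went with the level of exonic islands. Of 1639 genes with an exonic island, 884 were listed in the RNA tables, with a median of 9.82 on the log2 scale, beside 10.58 over all 11315 genes listed. With host genes split into low, middle and high sets of 418, 240 and 228 genes, named by site where the count above names 1 gene for each locus, at mean RNA levels of 9.53 and 11.44 on the log2 scale, the exonic island sites of the low set had 0.549 and 0.434 CPM per site in aOPC against 0.426 and 0.471 in aOL. The middle set had 0.661 and 0.566 in aOPC against 0.549 and 0.581 in aOL, and the high set 0.733 and 0.737 in aOPC against 0.724 and 0.726 in aOL. The level was higher from set to set in each library, and the span was smallest in aOPC replicate 2. Across 717 genes with both, the log2 fold changes of RNA and of island 5hmC had a Pearson r of 0.111 and a Spearman rho of 0.138. This is a description across genes, which are not independent replicates, of values from the same pellets.

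Few host genes were called in RNA. Of 862 with an exonic island that could be tested by limma, 1 was called higher in aOL and 2 lower at a p under 0.01 and an adjusted p under 0.05. Over all 11133 genes tested there were 1 higher (0.00898%) and 8 lower (0.0719%), so the shares of these hosts were larger, on few calls. The one called higher was Pcdhgb8, a clustered protocadherin, at 3.64 and 3.77 in aOPC against 9.60 and 8.99 in aOL on the log2 scale. Egr3, an immediate early transcription factor, at 5.08 and 5.18 in aOPC against 1.57 and 1.63 in aOL, was among those called lower. In both the groups were far apart in RNA. The exonic island of Egr3 had 111 and 186 counts in aOPC against 125 and 225 in aOL, and was not called. That of Pcdhgb8 had 15 and 56 counts in aOPC against 25 and 44 in aOL, and was not called either. Its log2 fold change was −0.83, opposite in direction to the RNA. None of the 519 hosts of intronic islands was called, with 68 higher and 43 lower at an unadjusted p under 0.05. For hosts of exonic islands these numbers were 124 and 66, where 1346 of all 11133 genes tested (12.1%) were higher and 1331 lower.

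The counts at the 2 strands of a CCGG were weakly correlated. Of the 23937 CCGG sequences in these islands without Rn45s, 12733 (53.2%) were listed on both strands. Across those in exons, the log2 CPM of the strands had a Pearson r of 0.318 and a Spearman rho of 0.272, and in introns and intergenic islands Pearson r was 0.247 and 0.255. Of 839 exonic CCGG sequences with more than 1 CPM on a strand, 155 (18.5%) exceeded it on both. Signal at one strand thus often came without signal of that size at the other, in a method whose reads are counted per strand. Levels were low, with medians over sites of 0.196 CPM in exonic islands without Rn45s, 0.135 in intronic and 0.132 in intergenic islands. How far counting error lowers these correlations was not tested.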

How the data were processed

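RRHP libraries were made by the authors from genomic DNA with a commercial RRHP kit, and reads were aligned to mm10 (the aligner is not given in the sources used here). The deposited RRHP tables hold raw counts per CCGG strand, not normalised, with promoter, exon, intron and CpG island fields. The deposited RNA tables hold normalised values on a log2 scale, which the authors made with tools that the submitters' notes list as BWA and DESeq2. Replicates were not pooled. Reads carry no molecular identifiers, so intervals cover counting error only.

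The 4 RRHP tables were joined by chromosome, position and strand, with a missing site set to 0. CPM is counts per 1000000 library counts. Neighbouring sites of 1 kind with gaps of at most 500 bp were joined into loci. Sites or loci that reached 10 reads in no fewer than 2 libraries entered the test, run over the whole table with edgeR 4.0.16 quasi-likelihood (TMM scaling, Benjamini-Hochberg adjustment) in R 4.3.3. RNA was tested with limma 3.58.1 on genes whose log2 value reached 5 in 2 or more libraries, and called at a p under 0.01 and an adjusted p under 0.05. Scripts were tested on simulated data. Shares were compared with exact permutation tests over libraries, two-sided.

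Sequence copies were counted as the 50 bases that start at each of 1630167 CCGG sequences of 21 chromosomes, on the strand of the site. Genes near loci and coding or untranslated parts came from GENCODE, and genes in intergenic loci also from RefSeq, both on GRCm38. DESeq2 1.42.0 was an alternative tool, and other scalings, filters, left-out libraries, summed strands and the replicate block were tried.

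The named loci were those called whose higher group had 50 or more reads in each library, up to 5 in each direction and class by fold change, the 5 with the highest mean CPM in each class, and the listed genes. The members, lists and tests were chosen with earlier results of these data known. The replicate numbers name samples of different reporter lines, and no source says that they pair. A few named results are not reported here, among them the intergenic locus called higher, which also ranked among the 5 highest intergenic loci.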

Additional observations from a re-analysis of the deposited data

How the results depend on the processing

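The order of the 3 classes held in each of the 4 libraries. The share of library counts and the ratios per site between aOL and aOPC turned with single libraries. With Rn45s included, the differences in the exonic, intronic and intergenic shares of island counts were 8.22, −3.03 and −5.19 points. They kept their direction with 1 library left out, at 3.12 to 13.3, −4.69 to −1.38 and −8.64 to −1.74 points. Over sites that passed the read filter they were 2.38, −1.24 and −1.14 points. Without Rn45s they were 6.37, −2.31 and −4.06 points, and rested on aOPC replicate 2. The intergenic share of aOPC replicate 3 was then 26.7%, below the aOL mean of 26.9%, and its exonic share was 56.1% against 56.2%. The aOL to aOPC ratio of the share of library counts in these islands (0.826) was between 0.659 and 1.11 when 1 library was left out, and 1.05 over sites that passed the read filter of the test. The ratio of the level in exonic islands, Rn45s included, to that in exons outside islands (0.918) was between 0.761 and 1.16 without 1 library, above 1 without aOPC replicate 2 and, at 1.04, without aOL replicate 2, and 1.03 over the filtered sites. Without Rn45s it was 0.848, between 0.727 and 1.02 without 1 library, above 1 only without aOPC replicate 2, and 0.960 over the filtered sites. For introns (0.614) the ratio ranged from 0.439 to 1.02 and for intergenic sites (0.660) from 0.485 to 1.03, above 1 in both only without aOPC replicate 2.

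Of sites, 29 were called higher and 28 lower. With 10 reads asked of every library there were 5 and 1 of 1256, beside 229 and 261 of all 171055 sites tested. With no filter there were 56 and 144 of 36750, beside 10291 and 12886 of 1497075. With both strands of a CCGG summed, 19 of 3807 were higher, beside 3792 of 422735. Leaving out 1 library gave 1 to 76 higher (76 without aOPC replicate 3, 2 and 1 without aOL replicates 2 and 3) and 8 to 246 lower (8 without aOPC replicate 2 and 246 without aOPC replicate 3). Of loci, 2 were called higher and 24 lower. Scaling to the island sites gave 4 of 3540 higher, beside 3898 of all 260747 loci. The filter in every library gave 1 and 0 of 2359, beside 38 and 245 of 164207. No filter gave 13 and 89 of 4707, beside 7469 and 6996 of 492924. DESeq2 gave 37 of 3540 lower, beside 3037 of 260747. Leaving out 1 library gave 1 to 19 higher and 10 to 564 lower. The cause of these shifts was not tested, though a fit that lacks a library rests on fewer samples. All 26 called loci kept their direction wherever they were tested, and 26 were still called without TMM scaling, 21 with scaling to the island sites, 24 with DESeq2, 14 of the 14 tested without aOPC replicate 2, 13 of 14 without aOPC replicate 3, 11 of 25 without aOL replicate 2, 20 of 25 without aOL replicate 3, and 1 of the 8 that had 10 reads in every library. For these 26, 206 of the 242 values under an alternative kept the call and 36 lost it, and for the 16 named loci that were not called, 166 of 176 values stayed so and 10 gained a call.

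With the replicate number as a block, 36 of 3636 member sites were called higher and 53 lower, beside 7476 and 5551 of all 443062 sites. The share lower was thus above that of all sites in this fit. Of 3540 member loci 2 were higher and 27 lower, 24 of the 26 among them, beside 2505 and 2919 of all 260747 loci. Deviations of same-numbered libraries had a correlation of −0.276 over 3540 island loci. With 2 libraries in each group, this check cannot decide whether the numbers pair the samples. A crossed block, chosen after seeing the data, gave 40 sites higher and 69 lower, beside 7694 and 6673 of all sites. It gave 12 loci higher and 153 lower, beside 6333 and 5836 of all loci.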
